A study of Mus musculus with 2 samples.

Results

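Killer lectin receptors are the C-type lectin-like receptors that natural killer (NK) cells use to read class I molecules and stress ligands on other cells. The 10 genes described here (Klra4, Klra7, Klra8, Klra9, Klrg1, Klre1, Klrb1c, Klrk1, Klrd1 and Klrc1) were taken by symbol from the 28692 genes listed in each of 2 single-cell RNA sequencing libraries of mouse liver mononuclear cells. All 10 were found, and each symbol had 1 gene ID. Their unique molecular identifiers (UMIs, each standing for 1 captured transcript) were counted in NK cells, in cells like type 1 innate lymphoid cells (ILC1-like) and in T cells. These cells were gated by marker genes that include no member of the set.

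Each library pooled liver cells of 3 C57BL/6 mice, collected at day 14. The library called MC38 came from mice whose spleen had been injected with 500000 MC38 cells, a mouse colon carcinoma line, and its label names MC38 as the tumor. The library called control came from mice given PBS by the same route and is labelled as having no tumor. The protocol text is the same for both groups and also names removal of the spleen and a subcutaneous injection of 3000000 MC38 cells, so the labels do not settle whether the control mice had either. With 1 library per group there was no replicate and no test between groups: group and library cannot be told apart, and every interval below is a 95% interval that covers counting error only.

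The set falls into roles that are textbook knowledge. The Klra genes encode Ly49 receptors, which bind class I molecules. Klra7 (Ly49G) and Klra9 (Ly49I) are inhibitory through a tyrosine motif in their cytoplasmic tail, the ITIM, which recruits phosphatases, whereas Klra4 (Ly49D) and Klra8 (Ly49H) are activating and signal through the adaptor encoded by Tyrobp. Klrd1 (CD94) pairs with Klrc1 (NKG2A), an inhibitory receptor for Qa-1, the product of H2-T23. Klrk1 (NKG2D) is an activating receptor for stress ligands such as the Raet1 and H60 proteins and signals through Hcst. Klrb1c encodes NK1.1, the antigen used to recognise NK cells in C57BL/6 mice. Klre1 pairs with Klri1 or Klri2, and Klrg1 is an inhibitory receptor for cadherins found on mature NK cells and effector T cells. Each NK cell expresses its own subset of Ly49 receptors, so counts per cell matter beside mean levels.

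The start of the coding sequence shows how the members differ in sign. The first 60 coding bases, which encode the start of the cytoplasmic tail in these type II membrane proteins, are printed for the 4 Klra genes and for the other members in which a search found an ITIM (isoleucine, valine, leucine or serine, any residue, tyrosine, any pair of residues, then leucine, valine or isoleucine) within the first 20 codons. Capitals mark the 6 codons of the motif, or the 6 codons at the same place in the Klra genes without it.
Klra4: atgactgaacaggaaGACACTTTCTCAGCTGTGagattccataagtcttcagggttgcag
Klra8: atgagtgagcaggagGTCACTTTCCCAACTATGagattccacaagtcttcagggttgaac
Klra7: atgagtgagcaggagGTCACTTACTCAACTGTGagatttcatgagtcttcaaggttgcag
Klra9: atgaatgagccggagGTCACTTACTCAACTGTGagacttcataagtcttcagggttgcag
Klrc1: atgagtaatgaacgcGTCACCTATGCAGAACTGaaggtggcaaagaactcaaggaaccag
Klrg1: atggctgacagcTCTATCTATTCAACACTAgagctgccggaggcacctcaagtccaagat
The third capital codon is a tyrosine codon in Klra7, Klra9, Klrc1 and Klrg1. It is the codon TTC, which is no tyrosine codon, in Klra4 and Klra8. The motif was not found in this stretch of Klre1, Klrb1c, Klrk1 or Klrd1. The sequences are from GENCODE M21 transcripts on GRCm38. All 10 genes lie on chromosome 6, the Klra genes on the minus strand within one cluster: Klra4 at chr6:130043731-130067271, Klra8 at chr6:130115226-130129898, Klra9 at chr6:130178675-130193112 and Klra7 at chr6:130218605-130233322. Klrc1 lies at chr6:129666015-129678973, Klrk1 at chr6:129610323-129623864, Klrb1c at chr6:128778485-128789215 and Klrg1 at chr6:122270596-122282882, all on the minus strand, and Klrd1 (chr6:129591782-129598775) and Klre1 (chr6:129577905-129585827) lie on the plus strand.

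Some of these genes are close copies of relatives, which bears on every count below because reads from shared stretches could be split or dropped by the authors' counting. Klra8 and Klra9 share 91.9% of their coding bases. Of the 50-base words of Klrc1 transcripts 38.5% also occur in another gene of the family, mostly Klrc2, and the share is 29.8% for Klra9, 13.0% for Klra8, 5.73% for Klrb1c and 4.26% for Klra4. Klra7, Klrg1, Klre1, Klrk1 and Klrd1 share none. The shares were taken over whole transcripts. The sources used here do not settle which end of the transcript was read, so the share within the stretch that was read is not known.

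Sequencing gave 14258 barcodes and 91617457 UMIs for control, and 19822 barcodes and 114421875 UMIs for MC38. After filtering, 3448 and 11855 cells were kept. The mitochondrial limit of 10% alone removed 74.8% of control and 33.3% of MC38 barcodes. The libraries shared 63 barcode sequences, and none of them was among the gated NK, ILC1-like and T cells. NK cells were 207 of the kept cells in control (6.00%) and 99 in MC38 (0.835%), ILC1-like cells were 32 in each (0.928% and 0.270%), and T cells were 711 and 407 (20.6% and 3.43%). Median depth was 4009 and 3713 UMIs per NK cell, 5005 and 5920 per ILC1-like cell, and 6075 and 5059 per T cell.

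The NK and ILC1-like gates were built on short marker lists, so the separation of those markers follows from the gating. Eomes, the NK transcription factor, had a UMI in 80.2% of control and 66.7% of MC38 NK cells and in 6.25% and 9.38% of ILC1-like cells. Cxcr6, a tissue-residency receptor of liver ILC1, was found in 84.4% and 65.6% of ILC1-like cells and in 1.93% and 2.02% of NK cells. S1pr5 and Cma1 were at 0 in the ILC1-like gate of both libraries, and Cd3d, Cd3e and Trac were at 0 in both gates because the gates required it. Some genes that the gates did not use differed as well. Prf1 (perforin) was at 320 and 81.1 CPM (UMIs per 1000000 UMIs of the gate) in NK and ILC1-like cells of control and at 371 and 94.1 CPM in MC38. Ly6c2 was at 788 and 114 CPM and at 397 and 170 CPM. Both come from a list of 8 NK maturation genes that went both ways. In control 4 of the 8 were at least 1.5-fold higher in NK cells and 3 lower, against 24.8% and 19% of all genes. In MC38 5 were higher and 1 lower, against 19.8% and 19.6%.

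Most members had their highest level in NK cells among the gates ranked. Levels were ranked over NK, ILC1-like, gamma-delta T, CD8 T, CD4 T, B and myeloid cells, and in control over innate-like T cells. Each of these gates held at least 20 cells. In each library 8 of the 10 members had their highest level in NK cells. The exceptions were Klrd1 and Klrc1, which were highest in ILC1-like cells. The share of all genes with their highest level in NK cells was not counted. Some ranks were close: Klrk1 in control was at 1125 CPM in NK and 1113 CPM in ILC1-like cells. Klrd1 in MC38 was at 795 and 807 CPM. The ranking left out the remaining T cells and the NK or ILC1 cells that neither marker list claimed. In the 23 such unclaimed cells of MC38, Klre1 was at 638 CPM, above its 591 CPM in NK cells. In the 9 of control, Klra4, Klra7, Klra8, Klrb1c, Klrk1 and Klrc1 were above their NK levels, by intervals that overlapped. Levels are in CPM, a gene's share of all UMIs of the gate scaled to a total of 1000000, and since capture differs between genes they are compared for 1 gene across cells, not between genes. All 10 members were at least 1.5-fold higher in NK than in T cells in both libraries, where 16.5% of all genes tested were that much higher in control and 17.6% in MC38. The activating Ly49 genes stood furthest apart: Klra4 was at 1073 CPM in control NK cells and 11.6 CPM in T cells, a log2 ratio of 6.54 (interval 6.17 to 6.93), and at 871 and 3.37 CPM in MC38 (8.01, 7.07 to 9.15). Klra8 was at 609 and 15.2 CPM in control and at 524 and 5.24 CPM in MC38. Klrc1 was the closest to T cells, with 160 CPM in NK and 86.4 CPM in T cells of control (0.89, 0.62 to 1.15) and 192 and 79.8 CPM in MC38 (1.26, 0.87 to 1.64).

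**Figure D1:**
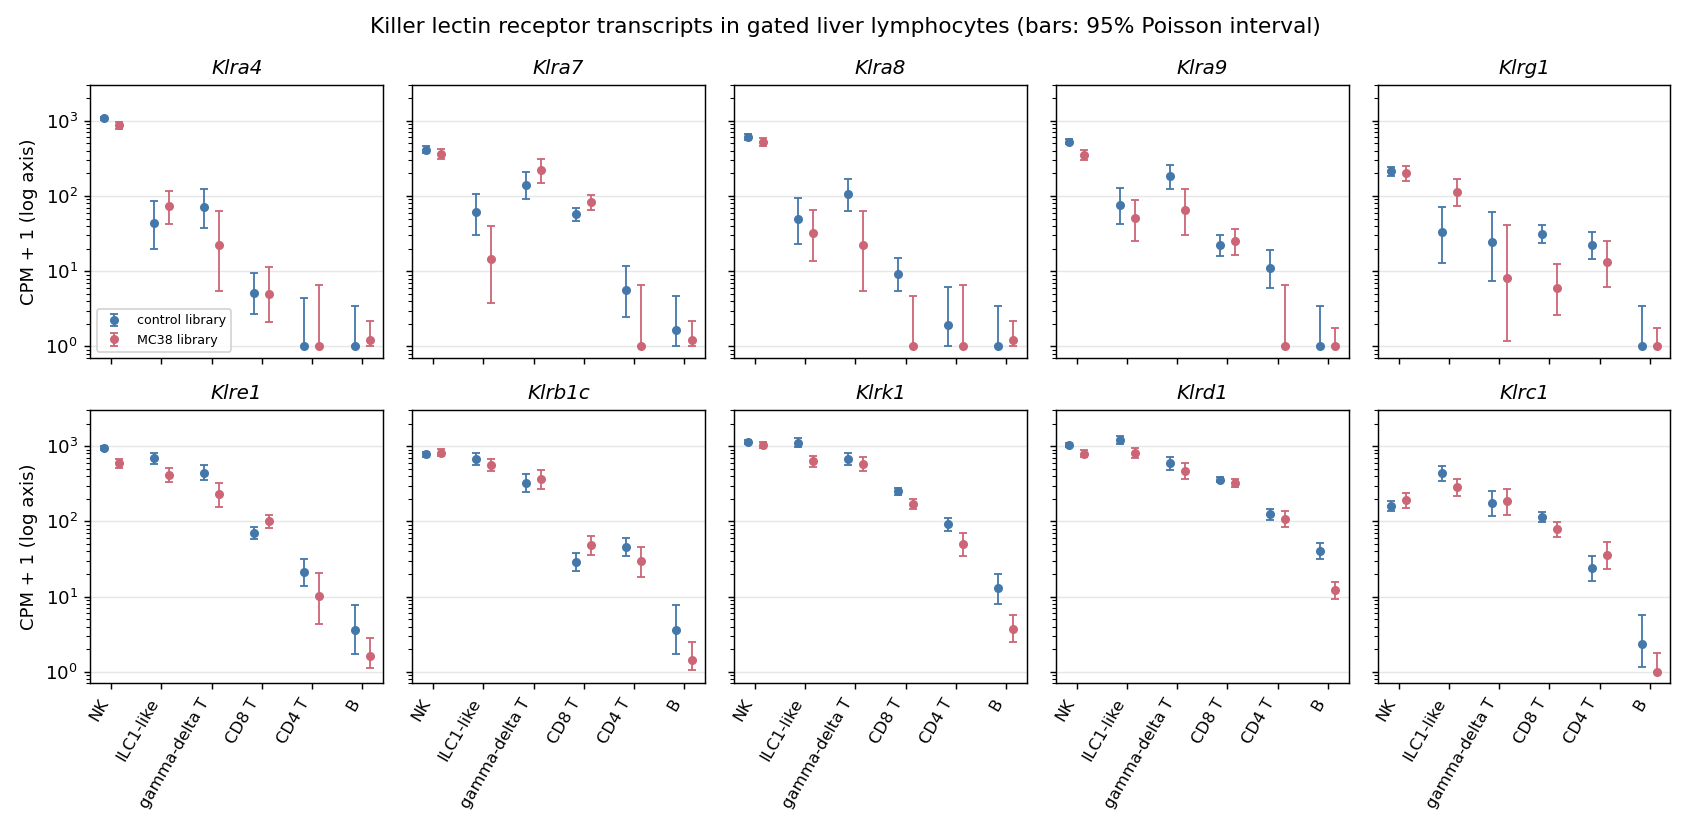
Level of each of the 10 members in 6 gates (horizontal axis), in CPM plus 1 on a log axis, with 1 point per library and 95% Poisson intervals. The 4 Klra genes drop steeply from NK to ILC1-like cells, whereas Klre1, Klrb1c and Klrd1 are within 1.5-fold of their NK level in ILC1-like cells, and Klrc1 is higher there in control (438 against 160 CPM).

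The shares of NK cells with a UMI split the set into widely and patchily detected genes. In control NK cells Klrk1 was detected in 98.1%, Klre1 in 94.7%, Klrd1 in 94.2% and Klrb1c in 93.2%, and in MC38 NK cells the shares were 99.0%, 88.9%, 91.9% and 93.9%. The Ly49 genes were each detected in a part of the NK cells: Klra4 in 58.9% and 57.6%, Klra7 in 54.1% and 47.5%, Klra8 in 57.5% and 55.6%, and Klra9 in 61.8% and 47.5%, for control and MC38 in turn. Klrg1 was found in 48.8% and 42.4% and Klrc1 in 30.9% and 30.3%. With every cell thinned to 1000 UMIs, averaged over 20 random draws, the shares were lower: Klrk1 stood at 68.3% and 65.1%, Klre1 at 61.7% and 47.2%, Klra4 at 46.5% and 43.2%, and Klrc1 at 13.3% and 13.4%. B cells, which as a type should lack these genes, had a Klrd1 UMI in 11.5% (control) and 2.26% (MC38) and a Klrk1 UMI in 4.13% and 0.885%, at median depths of 3849 and 2898 UMIs. The other 8 members were detected in at most 1.83% of B cells in either library. The B gate was not free of other cells' RNA, with Tyrobp in 33.0% and 27.6% of its cells and myeloid markers at 334 and 395 CPM, so its Klrd1 share was not read as background. A Klra4 UMI, when present, came with many others, at a mean of 8.84 UMIs per positive NK cell in control and 6.39 in MC38.

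The NK and ILC1-like cells of the same library differed mainly in the Ly49 genes, Klrg1 and Klrc1. In control, 5 of the 10 members were at least 1.5-fold higher in NK than in ILC1-like cells, against 24.8% of all genes tested, and 1 was lower, against 19% of all genes. Klra4 had 1073 CPM in NK and 43.2 CPM in ILC1-like cells (log2 ratio 4.63, interval 3.65 to 5.85), Klra8 had 609 and 48.6 CPM (3.65, 2.71 to 4.78), Klra9 had 528 and 75.7 CPM (2.80, 2.04 to 3.68), Klra7 had 413 and 59.5 CPM (2.80, 1.94 to 3.81) and Klrg1 had 211 and 32.4 CPM (2.70, 1.56 to 4.16). All 8 Klra4 UMIs of the control ILC1-like gate, and all 16 of the MC38 gate, sat in 1 cell each. No UMI of any of the 4 Klra genes was found in 26 of the 32 ILC1-like cells of each library. Klrc1 went the other way in control, with 160 CPM in NK and 438 CPM in ILC1-like cells (-1.45, -1.84 to -1.05), and was detected in 30.9% of NK and 71.9% of ILC1-like cells. At 1000 UMIs per cell the Klrc1 shares were 13.3% and 35.0%, and the ratio of levels was -1.30.

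In the MC38 library 6 members were higher in NK than in ILC1-like cells, against 19.8% of all genes, and 0 were lower, against 19.6%. The 4 Klra genes were again higher, from 2.84 (Klra9) to 4.76 (Klra7, which had 3 UMIs in the ILC1-like gate) on the log2 scale. Klrg1 was at 199 CPM in NK and 112 CPM in ILC1-like cells (0.83, 0.17 to 1.53), and Klrk1 at 1041 and 632 CPM (0.72, 0.44 to 1.01). Klrc1 stayed under the 1.5-fold limit, at 192 and 282 CPM (-0.56, -1.05 to -0.06), with shares of 30.3% of NK and 68.8% of ILC1-like cells. Klre1, Klrb1c and Klrd1 were within 1.5-fold between both cell types in each library. The Klrg1 ratio in MC38 depended on the gate: with NK and ILC1-like cells told apart by Eomes, and by Itga1 or Cxcr6 where Eomes was at 0, it was -0.074. Klrk1 was within 1.5-fold at 1000 UMIs per cell, at 0.55.

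**Figure D2:**
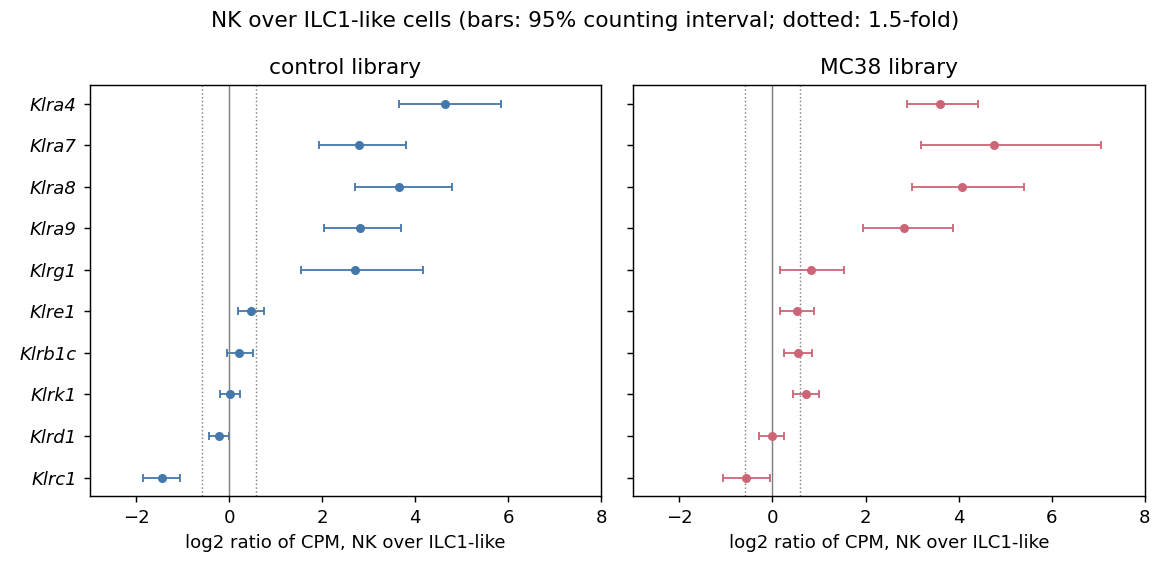
Log2 ratio of CPM in NK over ILC1-like cells for each member (rows), in the control library (left) and the MC38 library (right), with 95% counting intervals and dotted lines at 1.5-fold. The 4 Klra genes lie to the right of 1.5-fold in both libraries, and Klrc1 lies to the left of 0 in both, at -1.45 in control and -0.56 in MC38.

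Other receptor genes outside the set marked the same pair of cell types. Among the related lectin genes, Klra1 and Klra3 had 181 and 199 UMIs in control NK cells and 0 in the 32 control ILC1-like cells, which against a floor of 3 UMIs for the gate makes them at least 3.47 and 3.61 higher on the log2 scale. In MC38 Klra1 was at 168 CPM in NK and 13.4 CPM in ILC1-like cells (3.64, 2.03 to 5.95). Klra3 was at 153 and 40.3 CPM there, with 9 UMIs in 12.5% of ILC1-like cells. Of 10 related lectin genes tested in control, 4 were higher in NK cells and 2 lower, against 24.8% and 19% of all genes. In MC38 3 of 8 were higher and 1 lower, against 19.8% and 19.6%. Of NK receptors of other families, Cd160 was lower in NK cells, at 65.7 and 713 CPM in control (-3.44) and 57.5 and 300 CPM in MC38 (-2.39, -3.12 to -1.69), as was Cd226, an activating adhesion receptor, at 41.8 and 211 CPM in control (-2.33) and at 21.5 and 175 CPM in MC38. In this list 1 of 9 genes was higher in NK cells and 5 lower in control, against 24.8% and 19% of all genes. In MC38 1 of 8 was higher and 4 lower, against 19.8% and 19.6%.

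T cells carried the members in subsets. Gamma-delta T cells, 25 in control and 21 in MC38, had every member but Klrg1 at a higher level than CD8 or CD4 T cells had. Klrk1 was at 675 and 584 CPM, Klrd1 at 593 and 470 CPM, Klrb1c at 323 and 363 CPM, and Klra7 at 141 and 221 CPM in control and MC38. Klre1 was at 446 and 228 CPM, Klra9 at 182 and 64.1 CPM and Klrc1 at 176 and 185 CPM. Klra4 and Klra8 UMIs sat in at most 3 gamma-delta cells of either library. In control 9 of 10 members were at least 1.5-fold higher than in CD4 T cells, against 1558 of 8320 genes. In MC38 all 6 members tested were, against 1385 of 7380 genes. Klra4, Klra8, Klra9 and Klrg1 had fewer than 10 UMIs over both arms there and were not tested. Klra7, with 31 UMIs in gamma-delta and 0 in CD4 T cells, and Klre1, with 32 and 6, reached the minimum through the gamma-delta cells. The count therefore leans toward members high in those cells. Klrg1 had 4 UMIs in gamma-delta cells of control and 1 in those of MC38, too few to place it. In control it was at 23.5 CPM in gamma-delta, 30.6 CPM in CD8 and 21.2 CPM in CD4 T cells. In MC38 it was at 7.12, 4.99 and 12.2 CPM. The control gamma-delta gate also held erythroid markers at 38122 CPM, against 99.6 CPM in MC38, and their part in these levels was not tested. The NK receptor gene Ncr1 was at 335 CPM in control and 192 CPM in MC38 gamma-delta cells. It was at 17.1 and 8.99 CPM in CD8 and at 3.69 and 7.61 CPM in CD4 T cells. The part of cells with Ncr1 in the gamma-delta levels was not tested. CD8 T cells (187 and 117) had Klrd1 at 359 and 325 CPM and Klrk1 at 249 and 169 CPM, with Klrd1 detected in 79.1% and 67.5% of cells. CD4 T cells (132 and 110) had Klrd1 at 123 and 108 CPM and Klrk1 at 91.4 and 48.7 CPM. Klrb1c was found in 63.7% of the 146 innate-like T cells of control, which were gated by Zbtb16, and in 11.2% of CD8 T cells. The MC38 library held 12 innate-like T cells.

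The activating Ly49 genes in the T gate came from few cells. In control, 10 of 711 T cells had a UMI of Klra4 and 12 had one of Klra8, and cells that also held the NK receptor gene Ncr1 carried 93.7% and 96.4% of these UMIs. In MC38 4 and 5 of 407 T cells had them, with 55.6% and 78.6% of the UMIs in cells with Ncr1. Klra7 was spread wider, with 50 positive T cells in control and 42 in MC38, and 44.5% and 51.8% of its UMIs in cells with Ncr1. Ncr1 was detected in 78 T cells of control and 47 of MC38, and the part of these cells in the T cell levels was not tested beyond leaving them out.

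Between MC38 and control NK cells, 8 of the 10 members were within 1.5-fold. Of the 10 members 0 were higher by 1.5-fold or more, against 12.2% of all genes tested, and 2 were lower, Klre1 and Klra9, against 19.9% of all genes. The median log2 ratio of the members was -0.20, beside -0.07 over all 8378 genes tested.

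Klre1, the partner of Klri1 and Klri2, had 955 UMIs in 207 control NK cells (950 CPM) and 247 UMIs in 99 MC38 NK cells (591 CPM), a log2 ratio of -0.68 (interval -0.89 to -0.48). Over the 15 alternative settings this ratio lay between -0.91 and -0.65. Klra9, the inhibitory Ly49I, was at 528 CPM in control and 352 CPM in MC38 (-0.59, -0.86 to -0.32), just past the 1.5-fold limit, and lay between -0.91 and -0.58 over the alternatives. Klrd1 (CD94) was at 1037 and 795 CPM (-0.38, -0.57 to -0.20) and Klra4 (Ly49D) at 1073 and 871 CPM (-0.30, -0.48 to -0.13), both within 1.5-fold with intervals below 0.

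The other 6 had intervals that held 0. Klra8 (Ly49H) was at 609 and 524 CPM (-0.22), Klra7 (Ly49G) at 413 and 364 CPM (-0.18), Klrk1 (NKG2D) at 1125 and 1041 CPM (-0.11), Klrg1 at 211 and 199 CPM (-0.09), Klrb1c (NK1.1) at 782 and 821 CPM (0.07) and Klrc1 (NKG2A) at 160 and 192 CPM (0.26, -0.15 to 0.65).

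Several of these values depended on the mitochondrial limit. At a limit of 5%, which left 41 control and 49 MC38 NK cells, Klra8 turned to 0.62 (0.15 to 1.10), higher with MC38 by more than 1.5-fold. Klrg1 stood at -0.85 (-1.46 to -0.24) there and was lower by more than 1.5-fold, and Klra4 turned to 0.12 (-0.17 to 0.41). At a limit of 30% these 3 genes were within 1.5-fold.

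The NK gates differed in more than these genes. The 4 cell cycle genes Mki67, Top2a, Birc5 and Stmn1 summed to 906 CPM in control NK cells and 47.9 CPM in MC38 NK cells, and 14.0% and 4.04% of NK cells had at least 2 of these UMIs. Without such cells Klre1 stood at -0.73 and Klra9 at -0.77. The 5 hepatocyte markers, all detected in both arms, summed to 64.7 CPM in control and 383 CPM in MC38 NK cells, and their part in the results was not tested.

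In ILC1-like cells, with 32 cells in each arm, most members were lower with MC38. Of the 10 members 2 were higher with MC38, against 19.1% of all genes, and 7 were lower, against 21.7%, with a median log2 ratio of -0.63 beside -0.01 over all genes. Klrk1 was at 1113 CPM in control and 632 CPM in MC38 (-0.82, -1.14 to -0.50), Klre1 at 686 and 412 CPM (-0.74, -1.14 to -0.34), Klrc1 at 438 and 282 CPM (-0.63, -1.13 to -0.14) and Klrd1 at 1211 and 807 CPM (-0.59, -0.88 to -0.30). Klra7 had 11 UMIs in control and 3 in MC38, Klra8 had 9 and 7, and Klra9 had 14 and 11, so these 3 rest on at most 4 cells in each library. Klrb1c, at 670 and 560 CPM, was within 1.5-fold.

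Klrg1 was the member higher in the ILC1-like cells of MC38, with 6 UMIs in 9.38% of control cells and 25 UMIs in 31.2% of MC38 cells, or 32.4 and 112 CPM (1.79, 0.47 to 3.36). Klra4, the other member past 1.5-fold, had 8 and 16 UMIs in 1 cell each. The lower levels depended on the mitochondrial limit: at 30% mitochondrial UMIs, with 119 control and 40 MC38 ILC1-like cells, 1 member was lower by 1.5-fold, and Klrk1 stood at -0.46, Klre1 at -0.44, Klrc1 at -0.42 and Klrd1 at -0.40, while Klrg1 stood at 2.49. At 5%, with 7 control and 12 MC38 cells, Klrg1 was within 1.5-fold at 0.21 (-1.37 to 2.05), as were Klre1 at -0.31 and Klrd1 at -0.39. At 1000 UMIs per cell 3 members were lower by 1.5-fold and 0 higher, with Klrk1 at -0.62, Klrd1 at -0.61, Klrc1 at -0.65 and Klre1 at -0.56. Ncr1, a gate gene of this population, was at 1032 CPM in control and 582 CPM in MC38, and the cell cycle genes were at 324 and 833 CPM. The hepatocyte markers summed to 81.1 CPM in control, with Apoa1 at 0, and 229 CPM in MC38, and their part in the results was not tested. Without cells with at least 2 cell cycle UMIs, Klrg1 stood at 0.95 with an interval that held 0 (-0.61 to 2.67).

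In T cells 1 member was higher with MC38, against 13.9% of all genes, and 3 were lower, against 9.81%. Klra7 was at 35.0 CPM in control and 63.7 CPM in MC38 (0.86, 0.55 to 1.17), detected in 7.03% and 10.3% of T cells. Without the T cells with Ncr1 its ratio was 0.74, and at 1000 UMIs per cell it was 0.67 (-0.22 to 1.48). Klrg1 was at 20.2 and 9.74 CPM (-1.05, -1.73 to -0.42), and in CD8 T cells at 30.6 CPM (52 UMIs) and 4.99 CPM (5 UMIs). With the 30% mitochondrial limit the T cell ratio of Klrg1 was -0.27 (-0.79 to 0.22). Klra4 (11.6 and 3.37 CPM) and Klra8 (15.2 and 5.24 CPM) were lower too, and without the T cells with Ncr1 Klra4 stood at 0.817 and 1.76 CPM and Klra8 at 0.613 and 1.32 CPM. Klrd1, at 289 and 295 CPM, Klrc1, at 86.4 and 79.8 CPM, and Klre1, at 109 and 100.0 CPM, were within 1.5-fold with intervals that held 0, as was Klra9, at 27.3 and 28.1 CPM. Klrb1c was within 1.5-fold by level, at 137 and 124 CPM, but was detected in 41.4% of control T cells (37.7 to 45.1) and 24.3% of MC38 T cells (20.2 to 28.8). At 1000 UMIs per cell these Klrb1c shares were closer, at 13.9% and 10.7%. Klrk1 was within 1.5-fold at 235 and 197 CPM (-0.25, -0.40 to -0.10).

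Several of these T cell values depended on which cells were counted. Without the T cells with Ncr1, Klrk1 stood at -0.60 (-0.80 to -0.41) and Klrb1c at -0.61 (-0.89 to -0.34), both past 1.5-fold. Without cells with at least 2 cell cycle UMIs, Klre1 was past 1.5-fold at -0.66 (-0.95 to -0.38), Klrc1 stood at -0.58 (-0.94 to -0.23), Klrk1 at -0.55 (-0.75 to -0.35) and Klrg1 at -1.91. At a mitochondrial limit of 5%, with 56 control and 101 MC38 T cells, Klra9 was past 1.5-fold at -0.83 (-1.56 to -0.11). The make-up of the gate differed too, with innate-like cells at 146 of 711 T cells in control and 12 of 407 in MC38. The 5 hepatocyte markers summed to 107 CPM in control and 342 CPM in MC38 T cells, the 9 myeloid markers to 20.2 and 50.2 CPM, and the 3 neutrophil markers to 3.67 and 32.6 CPM. Erythroid markers were at 2810 and 105 CPM in CD8 T cells. The part of these differences in the results was not tested.

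**Figure D3:**
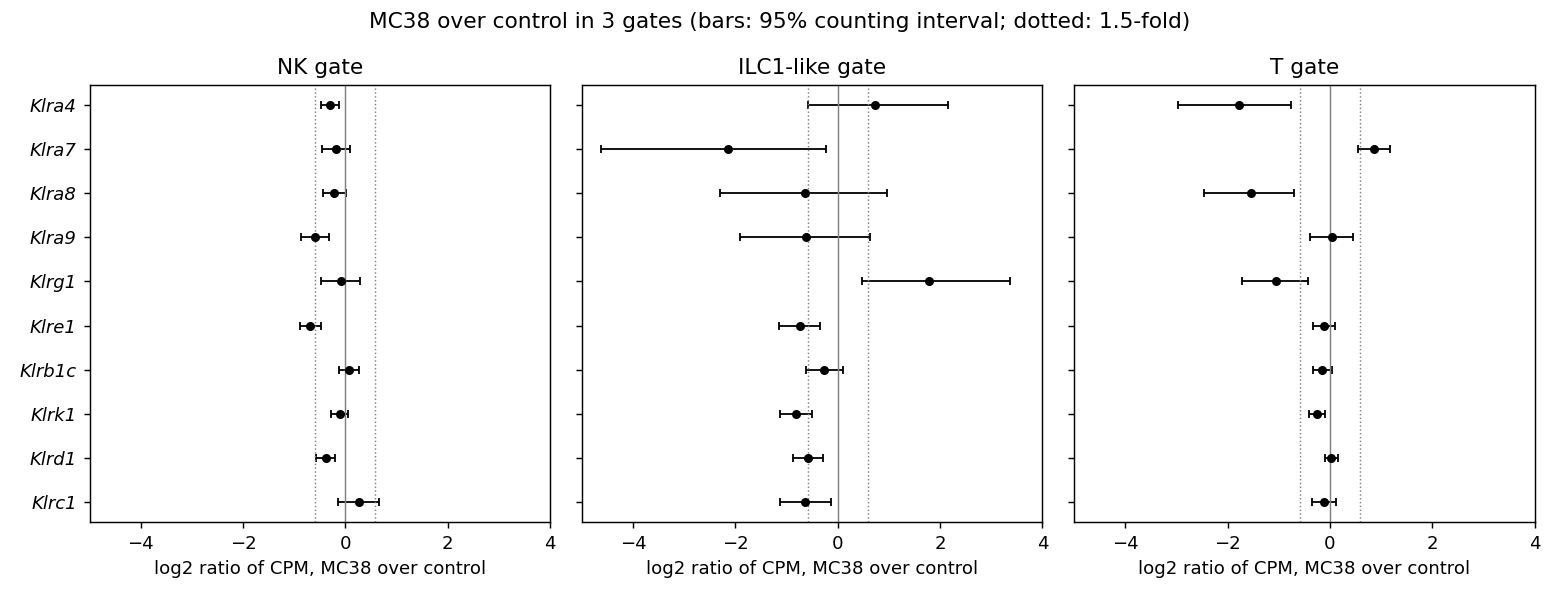
Log2 ratio of CPM in MC38 over control for each member (rows) in NK, ILC1-like and T cells, with 95% counting intervals and dotted lines at 1.5-fold. In NK cells the points stay near 0 except Klre1 (-0.68) and Klra9 (-0.59), and in ILC1-like cells most lie to the left of 0 with Klrg1 at 1.79.

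Single NK cells combined the Ly49 genes in all numbers. Of 207 control NK cells, 12 had a UMI of none of the 4 Klra genes, 26 of 1, 77 of 2, 67 of 3 and 25 of all 4. Of 99 MC38 NK cells the numbers were 14, 16, 29, 28 and 12. Cells with none were 5.80% in control (interval 3.03 to 9.91) and 14.1% in MC38 (7.95 to 22.6). Cells with at least 1 activating (Klra4 or Klra8) and at least 1 inhibitory gene (Klra7 or Klra9) were 68.1% in control and 62.6% in MC38. Activating genes alone were detected in 11.6% and 13.1%, and inhibitory genes alone in 14.5% and 10.1%. In ILC1-like cells 81.2% had none in both libraries.

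In control NK cells, pairs of Ly49 genes met in single cells about as often as their separate shares would give. Klra4 and Klra8, the activating pair, were found together in 36.7% of control NK cells, where the product of their shares is 33.9%. Klra7 and Klra9, the inhibitory pair, were together in 33.3%, with a product of 33.5%. In MC38 NK cells only Klra7 with Klra9 stayed below its product, at 22.2% against 22.5%. The other pairs lay above theirs, such as Klra4 with Klra9 (30.3% against 27.3%) and Klra7 with Klra8 (32.3% against 26.4%). This difference between the libraries was not tested.

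Klrc1 shares were lower in NK cells that held the activating Ly49 genes, in both libraries. In control, 26 of 122 NK cells with Klra4 had a Klrc1 UMI (21.3%, interval 14.4 to 29.6), against 38 of 85 without Klra4 (44.7%, 33.9 to 55.9). In MC38 these were 7 of 57 (12.3%, 5.08 to 23.7) and 23 of 42 (54.8%, 38.7 to 70.2). With Klra8 the shares were 22.7% with and 42.0% without in control. In MC38 they were 20.0% (10.4 to 33.0) and 43.2% (28.3 to 59.0), by intervals that overlapped. By number of Klra genes, Klrc1 was detected in 50.0% of control NK cells with 0 or 1 of them, in 37.7% with 2 and in 17.4% with 3 or 4, and in MC38 in 56.7%, 24.1% and 15.0%. Median depth in these classes was 4512, 3958 and 3940 UMIs in control and 3902, 4163 and 3694 in MC38. At 1000 UMIs per cell the Klrc1 shares with and without Klra4 were 7.46% and 17.8% in control and 4.17% and 21.6% in MC38. The intervals of these thinned shares overlapped in each library.

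**Figure D4:**
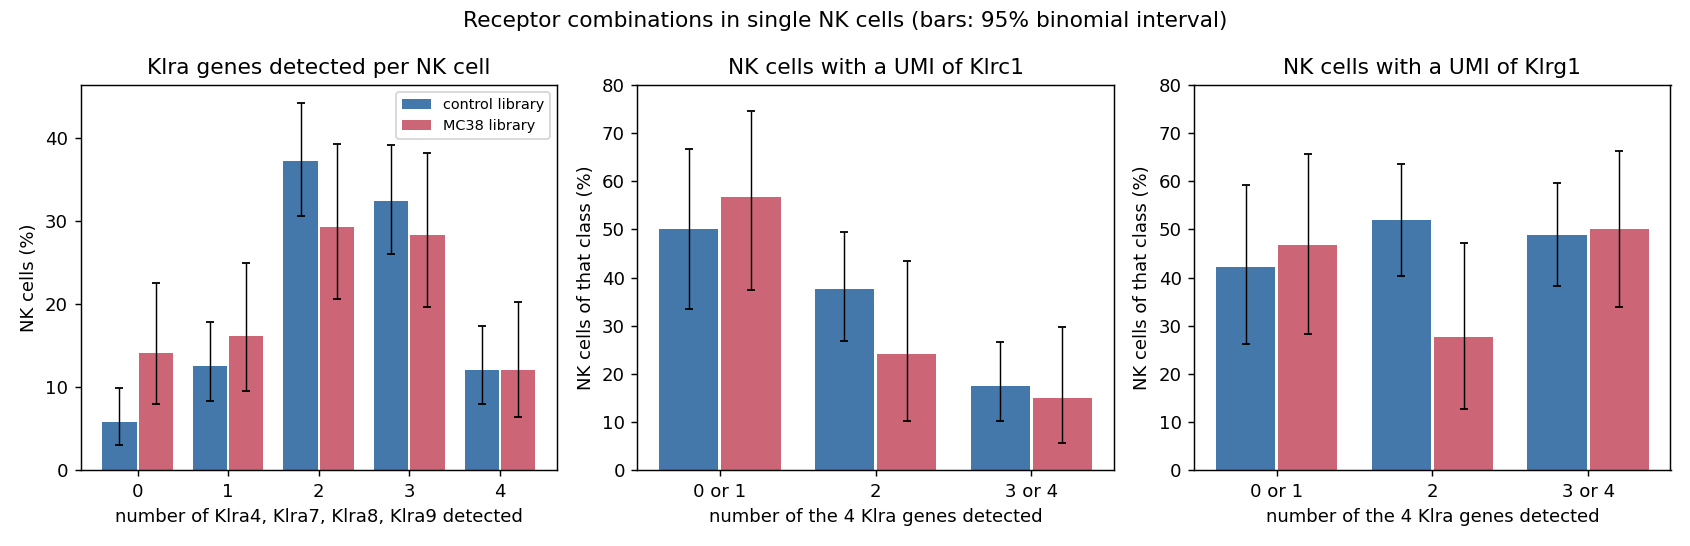
Left, percent of NK cells with 0 to 4 of the Klra genes detected; middle and right, percent of NK cells with a UMI of Klrc1 or Klrg1 by number of Klra genes, for each library with 95% binomial intervals. The Klrc1 share declines from 50.0% to 17.4% in control and from 56.7% to 15.0% in MC38, while the Klrg1 shares show no such order.

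The level of Klra4 itself followed the same split. NK cells with a Klrc1 UMI had 540 CPM of Klra4 and those without had 1332 CPM in control (-1.30, -1.54 to -1.07), and in MC38 289 and 1193 CPM (-2.05, -2.54 to -1.58). Klra8 was at 281 and 768 CPM in control (-1.45, -1.79 to -1.13) and at 323 and 636 CPM in MC38 (-0.98, -1.47 to -0.51). Klrc1 shares were lower with the inhibitory Klra7 as well, at 25.9% with and 36.8% without it in control and 23.4% and 36.5% in MC38. With the inhibitory Klra9 they were 30.5% with and 31.6% without it in control, and 21.3% and 38.5% in MC38. The intervals overlapped for both genes, as they did for Klra8 in MC38. The level of Klra7 with over without Klrc1 was -0.20 (-0.52 to 0.11) in control and -0.63 (-1.19 to -0.10) in MC38. The inhibitory Klra9 was near level in control (0.10, -0.17 to 0.36) and lower with Klrc1 in MC38 (-1.17, -1.81 to -0.57). The summed ILC1 markers were at 79.3 CPM in control NK cells with Klrc1 and 41.3 CPM in those without, and their part in this split was not tested.

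Klrg1 marked NK cells with more transcripts of maturation genes. In control, NK cells with a Klrg1 UMI had 117 CPM of Cx3cr1, a chemokine receptor of mature NK cells, against 19.6 CPM in those without (2.58, 1.59 to 3.71), and in MC38 276 and 31.0 CPM (3.16, 2.05 to 4.46). Ly6c2 was higher with Klrg1 as well, at 1089 and 495 CPM in control (1.14, 0.92 to 1.36) and 659 and 236 CPM in MC38 (1.48, 1.01 to 1.96), as was perforin (Prf1), by 0.68 and 0.75 on the log2 scale. Genes of less mature NK cells were lower: Cd27 was at 48.4 and 114 CPM in control (-1.23, -1.98 to -0.52), with 2 and 33 UMIs in MC38, Emb was at 30.3 and 82.4 CPM in control (-1.45), and Tcf7 at 38.3 and 110 CPM in control (-1.52, -2.35 to -0.75) and 18.8 and 73.5 CPM in MC38. Granzyme B (Gzmb) was higher in control (0.94, 0.72 to 1.16) and level in MC38 (0.05, -0.25 to 0.35).

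**Figure D5:**
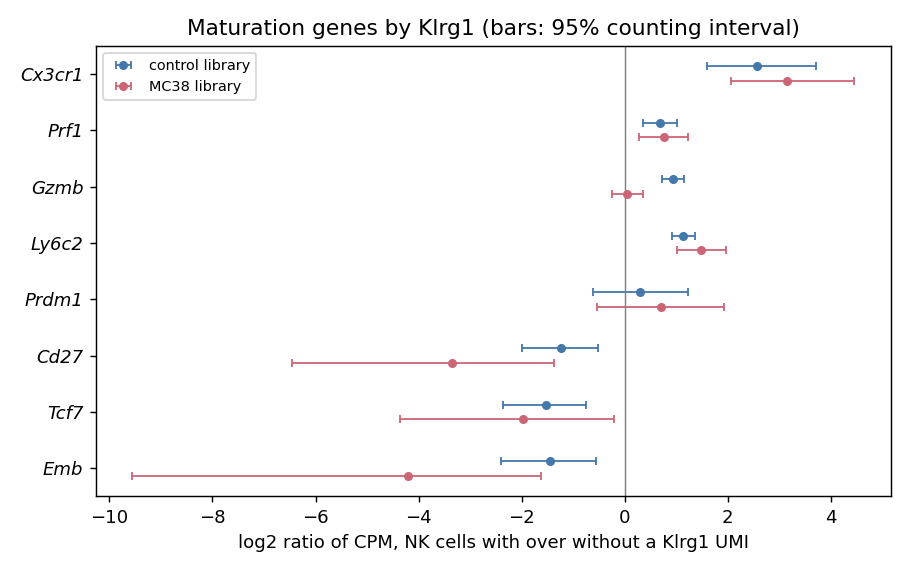
Log2 ratio of CPM in NK cells with over without a Klrg1 UMI for 8 maturation genes (rows), 1 point per library with 95% counting intervals. Cx3cr1, Ly6c2 and Prf1 lie to the right of 0 and Cd27, Tcf7 and Emb to the left in both libraries.

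Among the Ly49 genes, Klra9 was more than 1.5-fold higher in NK cells with Klrg1 in both libraries, and the other 3 were within 1.5-fold in both. A Klrg1 UMI was found in 59.4% of control NK cells with Klra9 and 31.6% without, and in 51.1% and 34.6% in MC38. The Klra9 level was 716 CPM with Klrg1 and 345 CPM without in control (1.05, 0.79 to 1.32) and 540 and 236 CPM in MC38 (1.19, 0.70 to 1.69). In control the cell cycle genes were also higher in cells with Klrg1, at 1105 and 713 CPM.

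The rest of the pathway was followed through lists of related genes. Of 19 further killer lectin genes 15 were listed in the files. In NK cells 11 had at least 10 UMIs, of which 2 were higher with MC38, against 12.2% of all genes, and 0 lower, against 19.9%, with a median of -0.06. Klrb1b, an inhibitory relative of Klrb1c, was at 134 CPM in control and 225 CPM in MC38 (0.74, 0.35 to 1.14), and Klra3 at 198 and 153 CPM (-0.37). In T cells 7 of 10 were higher, against 13.9% of all genes, and 0 lower, against 9.81%, with a median of 0.73 beside 0.01 over all genes. Klra6 (7.16 and 22.1 CPM, 1.63) and Klrb1a (11.6 and 35.2 CPM, 1.61) had the highest ratios, and Klrc2 (94.1 and 88.4 CPM) the lowest. In ILC1-like cells 1 of 6 was higher, against 19.1% of all genes, and 3 were lower, against 21.7%: Klri2 at 135 and 31.4 CPM (-2.11, -3.56 to -0.86), Klrb1f at 384 and 166 CPM (-1.21) and Klrc2 at 589 and 305 CPM (-0.95).

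The adaptors through which the activating members signal were detected in at least 90.8% of NK cells in both libraries. Tyrobp was at 2858 and 2794 CPM, Fcer1g at 2360 and 2440 CPM and Hcst at 561 and 560 CPM in control and MC38 NK cells. Of the 18 adaptor and signaling genes 4 were higher with MC38 in NK cells, against 12.2% of all genes, and 0 lower, against 19.9%, with a median of 0.05. Sh2d2a, which encodes the T cell-specific adaptor TSAd, had the highest ratio in NK cells, at 202 and 381 CPM (0.91, 0.61 to 1.22), and was also higher in ILC1-like cells, at 81.1 and 273 CPM (1.75, 0.92 to 2.68), and in T cells, at 123 and 207 CPM (0.76, 0.59 to 0.92).

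Of the receptors of other families, 3 of 9 were higher in NK cells, against 12.2% of all genes, and 2 lower, against 19.9%. In ILC1-like cells 1 of 7 was higher and 1 lower, no larger a share than the 19.1% and 21.7% of all genes. In T cells 5 of 11 were higher, against 13.9%, and 1 lower, against 9.81%. Cd160 in ILC1-like cells was at 713 and 300 CPM (-1.25, -1.70 to -0.81), Slamf7 in NK cells at 113 and 184 CPM (0.70, 0.26 to 1.13), and Lag3, an inhibitory receptor of activated cells, in T cells at 18.2 and 77.9 CPM (2.10, 1.75 to 2.46). Of the 8 maturation genes in NK cells 1 was higher and 1 lower, against the same 12.2% and 19.9% of all genes: Cx3cr1 was at 67.7 and 124 CPM (0.88, 0.33 to 1.42) and Ly6c2 at 788 and 397 CPM (-0.99, -1.24 to -0.74).

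Of 15 listed ligand genes, 5 had at least 10 UMIs in NK cells over both arms. H2-T23, whose product Qa-1 is read by Klrd1 with Klrc1, was lower with MC38 in NK cells (139 and 62.2 CPM, -1.16, -1.83 to -0.55), in ILC1-like cells (341 and 112 CPM, -1.60, -2.33 to -0.91) and in T cells (150 and 78.3 CPM, -0.94, -1.16 to -0.71). It was at 254 and 71.1 CPM in the myeloid gate. The classical class I genes H2-K1 and H2-D1 were detected in 100% of NK cells and were within 1.5-fold in NK, ILC1-like and T cells. Raet1e, a ligand of Klrk1, was detected in 0.0816% of control and 7.32% of MC38 myeloid cells, with 1 and 351 UMIs (0.0833 and 7.20 CPM). The myeloid gate differed in make-up between the libraries: cells with at least 3 UMIs of Siglech were 355 of 1226 in control and 180 of 4234 in MC38, and neutrophil markers were at 801 and 4822 CPM. The part of this in the H2-T23 and Raet1e values was not tested. In NK cells 1 of the 5 ligand genes was lower, against 19.9% of all genes, and 0 were higher, against 12.2%.

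Likeness of pattern was read over 18 levels (gates of at least 20 cells in each library, among them the remaining T cells of both and the 23 NK or ILC1 cells of MC38 that neither marker list claimed), which share libraries and gate markers, as Pearson's r of log2(CPM + 10) among 5252 genes. Beyond the members, Klra4 was closest to Adamts14 (r = 0.96) and Khdc1a (0.92), Klra8 to Adamts14 (0.93) and Klri2 (0.92), Klra7 to Baiap3 (0.92) and Klri2 (0.91), and Klra9 to Klri2 (0.94) and Ugcg (0.92). Klrc1 was closest to Gzmb (0.98) and Klrc2 (0.98), Klre1 to Chsy1 (0.98) and Klrc2 (0.97), Klrk1 to Klrc2 (0.97) and Samd3 (0.96), Klrd1 to Klrc2 (0.95) and Ccl5 (0.93), Klrb1c to Klrc2 (0.97) and Chsy1 (0.96), and Klrg1 to Ptprc (0.91) and Arf6 (0.90). Within the set the closest pairs were Klrk1 with Klrd1 (0.98) and Klra4 with Klra8 (0.98), and the farthest was Klra4 with Klrc1 (0.64).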

How the data were processed

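The deposited matrices hold raw UMI counts per gene and barcode, which the authors made before deposit; the matrix header names software version 3.0.2, per the file headers, while GRCm38.p6, STAR, Cell Ranger 2.2, bcl2fastq, R 3.6.0 and Seurat 2.3.4 are listed without roles per the submitters' processing notes. Barcodes with at least 200 genes, at most 10% mitochondrial UMIs and no scrublet doublet call (569 control and 1727 MC38 calls, rate 0.008 per 1000 barcodes) were kept. The tools were scipy 1.17.1, numpy 2.4.6, pandas 2.3.3 and scanpy 1.11.5 under Python 3.11.15, with Biopython 1.88 for sequences.

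T cells had at least 2 UMIs of Cd3d, Cd3e, Cd3g and Trac. NK and ILC1-like cells had Ncr1 and Nkg7, no Cd3d, Cd3e or Trac, and at least 2 of 7 NK markers (Eomes, Itga2, S1pr5, Cma1, Itgam, Zeb2 and 1 gene not reported here) or 8 ILC1 markers (Itga1, Cxcr6, Tnfsf10, Il7r, Cd200r1, Rora, Tmem176a, Tmem176b), whichever list had more. All 3 had at most 2 B cell and 2 myeloid UMIs. B cells had at least 3 UMIs of B markers and myeloid cells at least 5 of myeloid markers.

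UMIs were summed per gate and library and divided by the gate's total. Ratios have exact conditional intervals, levels exact Poisson and shares exact binomial intervals; a gene was called at 1.5-fold with at least 10 UMIs over both arms. Thinned values are means over 20 random draws, a number set after single draws of few UMIs were seen to differ. The ratio was run on simulated independent Poisson counts. These leave out the clumping of UMIs in single cells, so the run does not check the intervals of clumped genes. The members and lists were chosen with earlier results of these data known. All members were named, and of each list at most the 2 highest and 2 lowest ratios among genes with at least 20 UMIs, with the 2 genes most like each member; Raet1e, H2-K1, H2-D1, Tyrobp, Fcer1g and Hcst were named for their role, after their values were seen, as were the splits of NK cells by Klrc1 and Klrg1.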

Additional observations from a re-analysis of the deposited data

Results flagged for a closer look

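Klra7 and Klrg1 went opposite ways with MC38 in different cells, with counting intervals that excluded 0 on both sides at the main settings. Klra7 had a log2 ratio of -2.15 in ILC1-like cells, on 11 and 3 UMIs, and of 0.86 in T cells. Klrg1 had a ratio of 1.79 in ILC1-like cells, on 6 and 25 UMIs, and of -1.05 in T cells. Some alternatives gave ILC1-like intervals that held 0: Klrg1 stood at 0.21 (-1.37 to 2.05) at a mitochondrial limit of 5% and at 0.95 (-0.61 to 2.67) without cycling cells, and Klra7 at -0.89 (-3.32 to 0.93) at a limit of 30% and at -1.80 (-4.28 to 0.12) without cycling cells. T cell intervals held 0 in some alternatives too. Klrg1 stood there at -0.27 (-0.79 to 0.22) at a limit of 30% and at -1.16 (-3.06 to 0.67) at 1000 UMIs per cell. Klra7 in T cells stood at 0.67 (-0.22 to 1.48) at 1000 UMIs per cell. With 1 library per group these differences were not tested.

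Klrd1 also appeared outside NK, ILC1-like and T cells, between which the ratios above were taken. In cells of the myeloid gate with at least 3 UMIs of Siglech, a gene known from plasmacytoid dendritic cells, Klrd1 was at 304 CPM in 355 control cells (79.7% with a UMI) and at 356 CPM in 180 MC38 cells (85.0%). In B cells it was at 39.6 and 11.2 CPM. In the same Siglech cells Klrc1, its partner in NK cells, was at 0.646 and 0.682 CPM. This division of the gate was chosen after its values were seen.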

How the results depend on the processing

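No paired analysis was possible because there is 1 library per group and the labels carry no replicate numbers, and no replicate could be left out. Of the 15 alternatives, 3 (without cycling cells, without T cells with Ncr1, without the cell richest in a member), and all for shares but thinning, were chosen after seeing the data. Of the single ratios recomputed, 872 stayed within their counting interval, 148 moved beyond it and 5 turned sign from a called value. Of the counts of members, 136 stayed within 1.5 times and 14 did not.

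At a mitochondrial limit of 5%, 1 member (Klra8, 0.62) was higher with MC38 in NK and 1 in ILC1-like cells, 2.44% of control NK cells had no Klra gene, and Klrc1 was in 14.3% of those with Klra4. At 30%, 1 member was lower in ILC1-like cells, and Klra8 turned to 1.07. Thinned to 1000 UMIs (mean of 20 draws), 0 members were higher and 3 lower in ILC1-like cells. Single draws varied there: Klrd1 ran from -1.04 to 0.26. Thinned NK cells with 3 or 4 Klra genes were 15.2% in control and 14.3% in MC38, those with 0 were 16.9% and 27.5%, and Klrc1 was in 7.46% and 4.17% of cells with Klra4 and in 17.8% and 21.6% of cells without. As means over cells, 5 members were lower in T cells and Klra9 turned to 0.33 in ILC1-like cells. Split by Eomes, 1 was higher and 2 lower in ILC1-like cells, and Klrg1 in NK over ILC1-like cells of MC38 turned to -0.0737. Without Ncr1 in the gate, 1 was higher in ILC1-like cells. With at least 4 T marker UMIs, 1 was lower in NK cells, where Klra9 stood at -0.58, and Klra9 turned to 0.18 in ILC1-like cells. With a minimum of 30 UMIs, 1 was higher and 4 lower in ILC1-like cells. Without the cell richest in each member, these were 1 and 4, and Klra9 turned to 0.20. Over the alternatives the members higher in NK than T cells were 9 to 10 in control and 10 in MC38, and higher in NK than ILC1-like cells 5 to 7 and 4 to 8. The cause was not tested for any of these shifts. At 32 cells per arm, ILC1-like ratios of genes with few UMIs rest on few cells.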

Other observations

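Klrk1 was found outside lymphocytes as well, in cells of the myeloid gate with Clec9a, a gene known from cross-presenting dendritic cells. It was at 124 CPM in 119 control cells (73.9% with a UMI) and at 95.1 CPM in 119 MC38 cells (63.0%), at median depths of 14603 and 16359 UMIs, while Klre1 was at 3.70 and 1.42 CPM. In the Siglech cells Klrk1 was at 17.4 and 32.0 CPM. Among myeloid cells with Csf1r, Klrd1 was detected in 12.9% of 727 control cells and 3.99% of 3680 MC38 cells, and Klrk1 in 18.3% and 3.94%.

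The NK or ILC1 cells that neither marker list claimed were 9 in control and 23 in MC38, and entered no ratio between cell types or libraries, though the 23 were 1 of the 18 levels over which likeness was read. In MC38 these 23 cells had 409 CPM of Klra4, 286 CPM of Klra7, 95.2 CPM of Klrg1 and 190 CPM of Klrc1. They had 638 CPM of Klre1, against 591 CPM in MC38 NK cells. Klra4 was detected in 43.5% of them.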
